A study of Bos taurus with 15 samples.

Results

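The comparison set bovine blastocysts against bovine morulae, the stage that directly precedes them in the series. The arrays were chosen by their titles: 3 arrays are titled as blastocyst and 3 as embryo at the morula stage, 6 of the 15 arrays of the series. All 6 hold Bos taurus embryos made by in vitro fertilisation of oocytes that were aspirated from ovarian follicles and matured in hormone-supplemented medium. After fertilisation the oocytes were vortexed free of cumulus cells and cultured in synthetic oviduct fluid (SOF medium) with amino acids. No further treatment was applied to either group, and the titles call the arrays of each stage biological replicates 1, 2 and 3. The labels used here give neither the number of embryos behind an array nor the hours after insemination. The remaining 9 arrays hold oocytes (3), 1-cell embryos (2) and 1 array each of 2-cell, 4-cell, 8-cell and 16-cell embryos. Those arrays were used for the history of each gene, and the oocyte and 1-cell arrays also for the estimate of spread.

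A morula is a compacted ball of cells that still share much of their developmental potential. At blastocyst formation the outer cells become the trophectoderm, a sealed transporting epithelium, which pumps sodium inward through the sodium pump so that water follows and a cavity fills. The inner cell mass stays behind the epithelium and later separates into epiblast and hypoblast. In cattle the trophectoderm also secretes interferon tau, the signal by which a ruminant embryo announces pregnancy to its mother, and it begins to make steroids and prostaglandins.

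Marker genes were read beside the stage labels, and ZP4 among them was chosen after its values were seen. The oocyte coat gene ZP4 had signals of 85.3, 62.7 and 81.3 on blastocyst arrays 1 to 3, against 166, 259 and 106 on morula arrays 1 to 3, and 6197, 8070 and 8210 on the oocyte arrays. The pluripotency factor POU5F1 stood at 7099, 6322 and 8148 on the blastocyst arrays, against 8357, 8757 and 8199 on the morula arrays. Interferon tau (IFNT2), itself a called gene, was higher on every blastocyst array than on any morula array. So were the simple epithelial keratins KRT8, KRT18 and KRT19, which did not pass the test. The inner cell mass factor SOX2 was lower on every blastocyst array (log2 change -1.78 ± 0.80). The trophectoderm factor TEAD4 had a log2 change of -1.37 ± 0.57, with overlapping arrays. All of these genes are given below. The trophectoderm factors CDX2, GATA3 and TFAP2C and the inner cell mass factor NANOG have no probe set under those names here, so these defining markers could not be read.

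The arrays of a stage did not all resemble each other. On the log2(signal + 16) scale, 352 of the 24016 probe sets differed at least 4-fold between blastocyst arrays 1 and 2, and 47 did between morula arrays 1 and 2. Arrays numbered 3 stood apart: blastocyst 3 differed at least 4-fold at 1979 and 2514 probe sets from the other blastocyst arrays, and morula 3 did so at 2609 and 2347 from the other morula arrays. Between stages, blastocyst 1 and morula 1 differed at 287 probe sets, fewer than blastocyst 1 and blastocyst 2. Signal on the spike-in control probe sets, which report RNA added in the laboratory, was present on blastocyst 3 and morula 3 and near background on the other 4 arrays. One measure of RNA completeness moved with stage: the ratio of middle to 3′ probe set signal for cyclophilin was 0.766, 0.499 and 0.525 on blastocyst arrays, against 0.273, 0.322 and 0.178 on morula arrays, while the same ratios for GAPDH and eIF4E overlapped between stages. Its part in the results below was not tested.

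Few probe sets passed the test between the stages. A limma model with 1 mean per stage over all 15 arrays, and Benjamini-Hochberg adjustment over 24016 probe sets, called 29 probe sets higher in blastocysts (0.121%) and 11 lower (0.0458%) at an adjusted p below 0.05. With 1 probe set per gene, 16 of 9155 genes were higher (0.175%) and 8 lower (0.0874%). In each of the 40 called probe sets the arrays of the stages did not overlap. Complete separation of the 3 blastocyst from the 3 morula arrays was itself common, however. It occurred at 1550 probe sets in the higher direction (6.45%) and 1849 in the lower (7.7%), or at 661 genes (7.22%) and 894 genes (9.77%). The median log2 change was -0.03 over all probe sets and -0.04 over all genes. An unadjusted p below 0.05 by limma was reached by 852 of the 9155 genes. The counts given for gene lists below are to be read beside these values for all genes.

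The number of calls differed with the model fitted and the arrays used. With the replicate number as a block in a fit of the oocyte, morula and blastocyst arrays, no probe set passed by limma (smallest adjusted p = 0.0905), although 2200 had an unadjusted p below 0.05. With the 6 arrays of this comparison alone, none passed either (smallest adjusted p = 0.291), with 1738 at an unadjusted p below 0.05, against 1859 in the fit over all 15 arrays. Leaving out morula 2 left 2 probe sets higher and 1 lower, the lowest counts of the 6 such fits. The counts were 8 higher and 9 lower without morula 3, 18 and 8 without morula 1, 17 and 4 without blastocyst 2, 61 and 10 without blastocyst 3, and 26 and 20 without blastocyst 1. All 40 called probe sets kept their direction, with an unadjusted p of at most 0.00240, in every alternative that fitted all of them with replicates. EPAS1, HSD3B1 and GNGT2 passed in all 6 fits that left out an array.

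**Figure D1:**
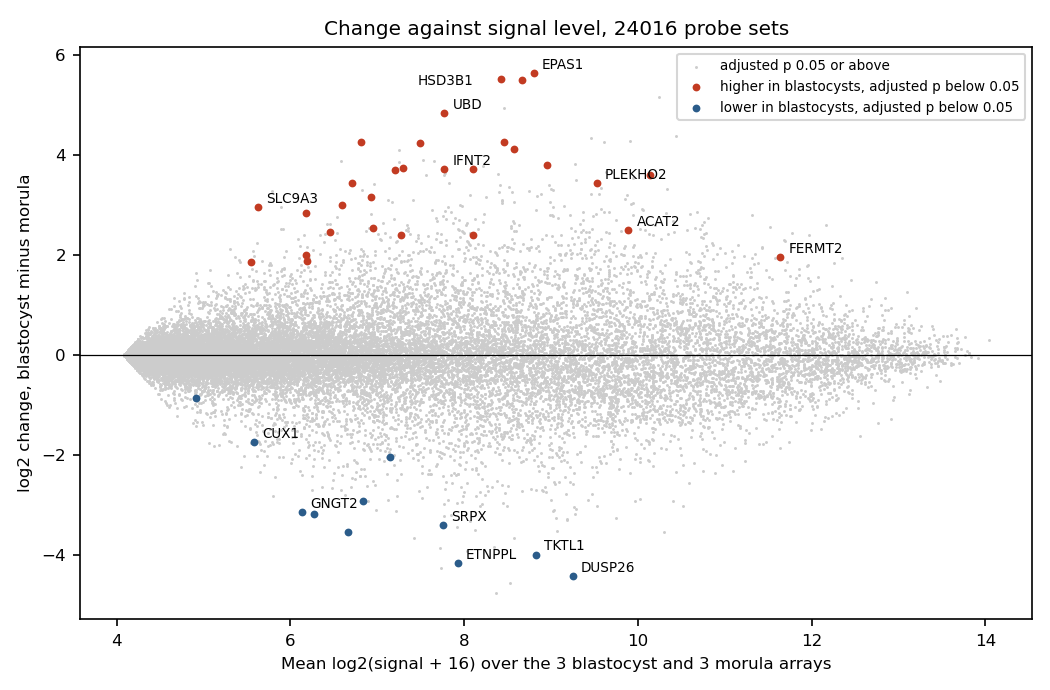
Each point is 1 probe set, with its mean log2(signal + 16) over the 3 blastocyst and 3 morula arrays on the horizontal axis and its log2 change, blastocyst minus morula, on the vertical axis. The 29 probe sets higher in blastocysts and 11 lower ones at an adjusted p below 0.05 are coloured; grey points, which did not pass, reach changes as large in both directions.

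IFNT2 and TKDP1, which encode secreted products of the trophoblast, rose. IFNT2, which encodes interferon tau, had signals of 564, 523 and 1543 on blastocyst arrays 1 to 3, against 87.6, 50.8 and 15.5 on morula arrays 1 to 3. Its log2 change was 3.71 ± 0.52 (SE; adjusted p = 0.0327, 0.201 with the replicate block). The log2 change was 2.75 over the arrays without spike-in signal, and 5.63 between blastocyst 3 and morula 3 alone. Interferon tau genes form a family of near-identical copies, so the probe set may report several of them. In RNA of whole embryos, more cells of a type and more RNA per cell cannot be told apart, here or in the results that follow. TKDP1, a trophoblast Kunitz domain protein known from ruminant placentas, had signals of 139, 92.3 and 149 in blastocysts, against 19.6, 36.5 and 13.9 in morulae. That is a log2 change of 1.88 ± 0.27 (adjusted p = 0.0382, 0.206 with the block). The probe set is one that can bind several transcripts of the family, and the second TKDP1 probe set, with a log2 change of 0.63, did not pass (adjusted p = 0.797).

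UBD and IL20RB rose as well. UBD encodes a ubiquitin-like protein that tags proteins for the proteasome and is known as a target of inflammatory cytokines. Its signals were 646, 2732 and 860 in blastocysts, against 44.4, 40.2 and 4.09 in morulae, a log2 change of 4.84 ± 0.56 (adjusted p = 0.0137, 0.0905 with the block). Without blastocyst 2 the UBD change was 4.22. The oocyte arrays lay between 12.4 and 13.9. IL20RB, a receptor subunit for cytokines of the interleukin-20 family, had signals of 227, 239 and 101 in blastocysts, against 29.7, 8.44 and 2.04 in morulae. It rose by 2.83 ± 0.41 on the log2 scale (adjusted p = 0.0382, 0.0905 with the block).

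The list of interferon tau, trophoblast secretions and pregnancy-associated glycoproteins held 29 measured genes, each by its brightest probe set. IFNT2 alone passed the test among these. TKDP1 enters by its second probe set, which did not pass. Of the 29, 5 were higher on every blastocyst array and none lower, and the median log2 change was -0.04, equal to that of all genes. PAG2, a pregnancy-associated glycoprotein of the ruminant trophoblast, had signals of 186, 527 and 30.1 in blastocysts, against 1.19, 3.10 and 1.00 in morulae, and did not pass (log2 change 3.27 ± 0.67, adjusted p = 0.117). MUC1, a mucin of epithelial surfaces, had 94.8, 102 and 114 in blastocysts, against 30.4, 23.1 and 42.1 in morulae (log2 change 1.34 ± 0.26, adjusted p = 0.102). PAG2, MUC1 and the other genes named below that did not pass, where they are outside the rule for named genes, were chosen after their values were seen, as genes with non-overlapping arrays and small p in their list.

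On the list of interferon-induced genes, which answer interferon through the STAT pathway, 0 of 24 measured were called. Of the 24, 1 had an unadjusted p below 0.05 by limma, and 2 were higher on every blastocyst array and 0 lower. UBD, which passed, was not on this list. MX1, an antiviral GTPase, had signals of 42.7, 27.6 and 48.3 in blastocysts, against 6.29, 6.03 and 3.19 in morulae (log2 change 1.37 ± 0.27, adjusted p = 0.101). These levels lay below the median probe set of each array, which ranged from 49.4 to 62.1 on blastocyst and 48.2 to 61.0 on morula arrays. The table used here has no detection call, so signals under that median are given as values only. IRF9, a partner of the STAT proteins, had 91.0, 54.3 and 104 in blastocysts, against 49.2, 53 and 5.07 in morulae (adjusted p = 0.646).

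The largest changes among named genes belonged to a steroid enzyme and an oxygen-regulated factor. HSD3B1 converts pregnenolone to progesterone, the hormone of pregnancy. Its signals were 1458, 3867 and 2148 on blastocyst arrays, against 44.0, 23.3 and 39.0 on morula arrays, and the stages were separated by a wide gap. The log2 change was 5.51 ± 0.42 (95% interval 4.57 to 6.46; adjusted p = 0.00352, 0.0905 with the block). EPAS1 encodes the oxygen-regulated subunit of a hypoxia-inducible transcription factor and is known in placenta and blood vessels. It had signals of 3205, 5306 and 1788 in blastocysts, against 86.9, 44.8 and 24.3 in morulae, a log2 change of 5.63 ± 0.49 (adjusted p = 0.00476, 0.0905 with the block). The other EPAS1 probe set had signals of 165, 118 and 7.32 in blastocysts, against 29.6, 43.9 and 31.6 in morulae, and did not pass (adjusted p = 0.930).

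On the list of steroid and prostaglandin synthesis, 30 genes were measured and HSD3B1 alone passed. Every blastocyst array exceeded every morula array for 7 of the 30, the reverse held for 1, and the median log2 change was 0.25, against -0.04 for all genes. PTGS2, the inducible cyclooxygenase that starts prostaglandin synthesis, had signals of 1855, 6410 and 2598 in blastocysts, against 260, 74.4 and 137 in morulae (log2 change 4.34 ± 0.80, adjusted p = 0.0846). The other PTGS2 probe sets had log2 changes of 2.89 and -0.33, which did not pass. AKR1B1, an aldo-keto reductase with prostaglandin F synthase activity in cattle, had 1849, 3481 and 1246 in blastocysts, against 569, 530 and 421 in morulae (log2 change 1.96 ± 0.49, adjusted p = 0.234). The side-chain cleavage enzyme CYP11A1, which supplies pregnenolone, had low signals of 37.4, 59.6 and 42.1 in blastocysts, against 12.1, 15.3 and 24.2 in morulae (adjusted p = 0.240). Its electron donor FDX1 had 2364, 1580 and 3810 in blastocysts, against 1126, 1277 and 1172 in morulae (adjusted p = 0.430).

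HSD3B1 and PTGS2 are also cumulus, granulosa and theca cell genes, and that marker list was read beside them. Of its 36 measured genes, HSD3B1 passed, 7 were higher on every blastocyst array and 2 lower, and 16 lay below the array median on all 6 arrays. The summed signal of the list, which is weighted toward its brightest members, ranged from 18537 to 23340 in blastocysts and from 15342 to 19685 in morulae. Single markers of these cells differed. FSHR and CYP19A1, genes of granulosa cells, stayed below the array median on all 6 arrays, with FSHR at 15.8, 16.7 and 44.8 in blastocysts against 6.97, 1.00 and 4.59 in morulae, and CYP19A1 at 22.3, 19.7 and 39.4 in blastocysts against 12.2, 25.5 and 26.4 in morulae. HAS2, the hyaluronan synthase of expanding cumulus, was bright throughout, with 8039, 6215 and 8720 in blastocysts, against 8973, 8622 and 9257 in morulae. STAR, which feeds cholesterol to steroid synthesis, had 140, 202 and 83.4 in blastocysts, against 78, 95 and 907 in morulae, and AMH had 14.3, 10.9 and 17.0 in blastocysts, against 8.23, 12.8 and 59.2 in morulae, so morula 3 was the highest array for both. The part of such cells in these results was not tested.

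The hypoxia list held 27 measured genes, of which EPAS1 passed, 3 were higher on every blastocyst array and 3 lower, with a median log2 change of 0.11. DDIT4, a stress-induced inhibitor of mTOR signalling, had 4892, 2356 and 3239 in blastocysts, against 9555, 8031 and 6009 in morulae, and did not pass (log2 change -1.21 ± 0.34, adjusted p = 0.334).

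**Figure D2:**
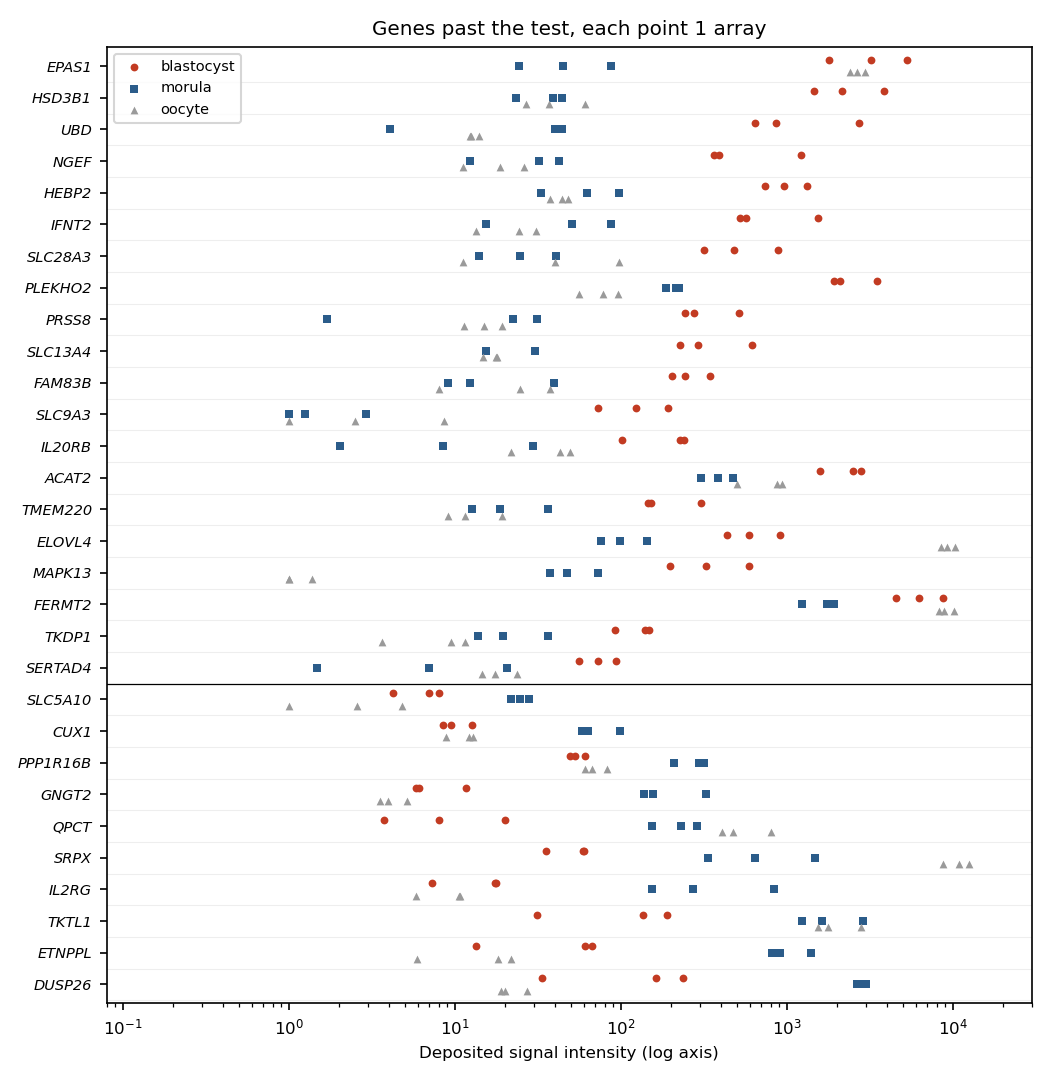
Deposited signal intensity, on a log axis, of the 30 named genes past the test, each point 1 array of blastocysts, morulae or oocytes. Genes above the line were higher in blastocysts and genes below it lower, and the blastocyst and morula points of a gene do not overlap in any row. Above the line, EPAS1, FERMT2, ELOVL4 and ACAT2 have every oocyte point above every morula point, by little in ACAT2. Below the line, SRPX and QPCT do.

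SLC9A3, SLC28A3, SLC13A4 and PRSS8 rose. On the list of amino acid and other solute carriers, however, none of 46 measured genes passed, 5 had an unadjusted p below 0.05, 3 were higher and 4 lower on every blastocyst array and the median log2 change was -0.07, and the transporter gene SLC5A10, given below, fell. SLC9A3, the sodium-proton exchanger of absorptive epithelia, had signals of 72.9, 191 and 124 in blastocysts, against 1.25, 1.00 and 2.90 in morulae. The log2(signal + 16) change was 2.96 ± 0.28 (adjusted p = 0.00572, 0.0905 with the block). Its size depends on the added 16, since the morula signals lie far below the array median and carry no detection call. SLC28A3, a concentrative nucleoside transporter, had 483, 319 and 886 in blastocysts, against 24.7, 40.6 and 14 in morulae (log2 change 3.70 ± 0.55, adjusted p = 0.0420). SLC13A4, a sodium-sulfate cotransporter known in placenta, had 226, 622 and 293 in blastocysts, against 30.5, 30.2 and 15.4 in morulae (log2 change 3.16 ± 0.36, adjusted p = 0.0135). PRSS8, or prostasin, a membrane-anchored protease that activates the epithelial sodium channel, had 276, 244 and 514 in blastocysts, against 31.3, 22.4 and 1.69 in morulae (log2 change 3.43 ± 0.39, adjusted p = 0.0135). With the replicate block the adjusted p of these 4 genes ran from 0.0905 to 0.201. Other probe sets of SLC9A3, SLC28A3 and SLC13A4 did not pass, with log2 changes between -0.03 and 1.50.

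Genes of cavity formation had bright signals in morulae as well. No gene passed among 34 measured on the list of the sodium pump, ion and water transport, where 4 were higher on every blastocyst array, 0 lower and 3 had an unadjusted p below 0.05. SLC9A3 enters that list, and TKDP1 its own, by a brighter probe set that did not pass. The water channel AQP3 had signals of 10275, 7999 and 7272 in blastocysts, against 10833, 9382 and 7164 in morulae (log2 change -0.09 ± 0.67, 95% interval -1.60 to 1.41). The sodium pump subunit ATP1B3 had 10496, 14100 and 10733 in blastocysts, against 10313, 7900 and 3805 in morulae (log2 change 0.78 ± 0.51, adjusted p = 0.810), and the oocyte arrays lay between 190 and 633. Its relative ATP1B1 had 2180, 1477 and 2253 in blastocysts, against 2389, 1021 and 1186 in morulae. The chloride channel CFTR did separate the stages, with 3165, 3375 and 2889 in blastocysts, against 1131, 857 and 827 in morulae, without passing (log2 change 1.74 ± 0.43, adjusted p = 0.227). ATP2B1, a calcium pump of the cell membrane, likewise had 2227, 4290 and 1907 in blastocysts, against 1445, 1299 and 531 in morulae (adjusted p = 0.457).

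On the list of keratins and other intermediate filaments, 4 of 19 measured genes were higher on every blastocyst array and 0 lower. None passed the test, and 4 had an unadjusted p below 0.05. KRT8 had signals of 621, 648 and 354 in blastocysts, against 142, 46.4 and 22.8 in morulae (log2 change 2.89 ± 0.49, adjusted p = 0.0717). Its partner KRT18 had 7120, 10988 and 10132 in blastocysts, against 5008, 2146 and 1565 in morulae (log2 change 1.84 ± 0.53, adjusted p = 0.337). KRT19 had 3407, 5332 and 4120 in blastocysts, against 731, 375 and 20.2 in morulae (log2 change 4.27 ± 1.46, adjusted p = 0.457), with one oocyte array at 1186. The KRT19 change was 2.97 without morula 3. KRT5, a keratin of stratified epithelia, had 3714, 4399 and 2219 in blastocysts, against 11974, 11532 and 2984 in morulae, and its arrays overlapped (adjusted p = 0.734). The median change of the list was -0.06, near that of all genes.

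Junction genes gave a mixed picture with no call among 33 tight and adherens junction genes or 16 gap junction and desmosome genes; 1 and 4 of them had an unadjusted p below 0.05. DSC2, a desmosomal cadherin, had 1444, 4151 and 1183 in blastocysts, against 235, 34.5 and 4.29 in morulae (log2 change 4.93 ± 0.87, adjusted p = 0.0774). PERP, another desmosome component, had 7584, 7194 and 4260 in blastocysts, against 3467, 1398 and 1954 in morulae (adjusted p = 0.751). JUP, or plakoglobin, which links desmosomal cadherins to the filaments, had 441, 329 and 811 in blastocysts, against 293, 228 and 169 in morulae (adjusted p = 0.539). The gap junction gene GJB5 ran the other way, with 2488, 1142 and 4909 in blastocysts, against 6645, 6980 and 6869 in morulae (log2 change -1.50 ± 0.55, adjusted p = 0.5). GJA1, the connexin of early embryos, had 50.1, 52.3 and 142 in blastocysts, against 120, 109 and 391 in morulae (adjusted p = 0.844).

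The tight junction gene CLDN4 had signals of 5294, 1855 and 4906 in blastocysts, against 2879, 1303 and 1719 in morulae (adjusted p = 0.707). CLDN6 had 12427, 12345 and 9948 in blastocysts, against 13220, 11876 and 3392 in morulae, a log2 change of 0.50 that was -0.02 over the arrays without spike-in signal. E-cadherin (CDH1) had 4128, 7024 and 1319 in blastocysts, against 2849, 1274 and 303 in morulae (log2 change 1.68 ± 1.06, adjusted p = 0.796). EPCAM, an epithelial adhesion molecule, had 10563, 12211 and 9370 in blastocysts, against 9828, 5977 and 2932 in morulae (adjusted p = 0.703). The scaffold gene TJP1 had 36.2, 35.0 and 123 in blastocysts, against 36.8, 46.2 and 115 in morulae. In CLDN4, CLDN6, CDH1 and EPCAM the lowest signal of the 6 arrays was on a morula array, and the ranges of the stages overlapped.

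Among actin-associated genes none of 50 measured passed (3 had an unadjusted p below 0.05), 6 were higher on every blastocyst array and 1 lower, and the median log2 change was 0.14. The actin bundler PLS1, a component of microvilli, had 8423, 8957 and 5021 in blastocysts, against 818, 475 and 4.17 in morulae (log2 change 5.16 ± 1.54, adjusted p = 0.361). With 1 array left out the PLS1 change ranged from 3.50, without morula 3, to 6.19. LIMA1, which stabilises actin filaments, had 1350, 986 and 1167 in blastocysts, against 297, 186 and 432 in morulae (log2 change 1.95 ± 0.57, adjusted p = 0.350). Among general cytoskeletal genes, ACTG1 had 12646, 17129 and 13942 in blastocysts, against 13237, 12541 and 10710 in morulae (log2 change 0.25 ± 0.21). The actin crosslinker ACTN4 overlapped too, with 11621, 9394 and 12504 in blastocysts, against 11896, 12232 and 12846 in morulae.

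Annexins and S100 proteins, which bind calcium and membranes, included 6 of 24 genes higher on every blastocyst array and 1 lower, with a median log2 change of 0.23 and no call (6 had an unadjusted p below 0.05). ANXA1 had 3554, 4080 and 3940 in blastocysts, against 907, 345 and 1352 in morulae (log2 change 2.33 ± 0.49, adjusted p = 0.134). ANXA3 had 1247, 4273 and 4086 in blastocysts, against 208, 72.5 and 548 in morulae (log2 change 3.65 ± 0.82, adjusted p = 0.173). ANXA4 had 616, 1087 and 667 in blastocysts, against 82.6, 69.2 and 10.1 in morulae (log2 change 3.70 ± 0.82, adjusted p = 0.160). S100A10 had 5715, 6331 and 5874 in blastocysts, against 1894, 1442 and 1369 in morulae (log2 change 1.93 ± 0.49, adjusted p = 0.239). In each of these the lowest blastocyst array exceeded the highest morula array. ANXA11 separated by little, with 5473, 5218 and 6637 in blastocysts, against 5134, 4977 and 4950 in morulae, and S100A14 overlapped, with 9352, 6664 and 7753 in blastocysts, against 9271, 6307 and 3366 in morulae.

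**Figure D3:**
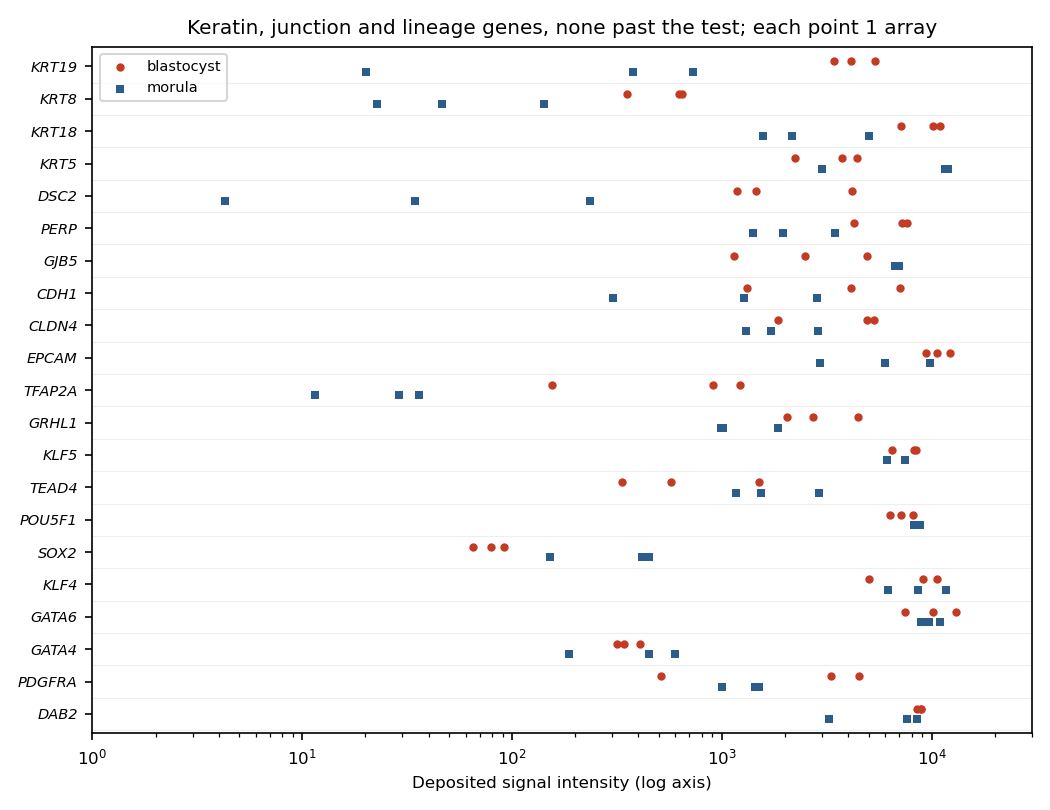
Deposited signal intensity, on a log axis, of keratin, junction and lineage genes, none of them past the test, each point 1 blastocyst or morula array. KRT19, KRT8, KRT18, DSC2, PERP, TFAP2A, GRHL1 and DAB2 have every blastocyst point to the right of every morula point, GJB5, POU5F1 and SOX2 have them to the left, and the others overlap.

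Genes of lipid and sterol synthesis showed the largest median shift of the 47 lists. ACAT2, the cytosolic thiolase that makes the first intermediate of the mevalonate pathway to cholesterol, passed the test: signals were 2512, 2818 and 1587 in blastocysts, against 477, 387 and 306 in morulae, a log2 change of 2.50 ± 0.39 (adjusted p = 0.0487, 0.201 with the block). Of 30 measured genes of cholesterol and fatty acid synthesis, ACAT2 was the only call, 12 had an unadjusted p below 0.05 and 26 had a positive change. Every blastocyst array exceeded every morula array for 12 of the 30, and the reverse held for 0, beside 7.22% and 9.77% of all genes. The median log2 change was 0.78, against -0.04 for all genes; it was 0.52 on the arrays without spike-in signal, 0.50 between the arrays with it, and 0.42 without morula 3. The summed signal of the list ran from 69731 to 106506 in blastocysts and from 43403 to 56984 in morulae.

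Several steps of the pathway lay above their morula range without passing. HMGCS1, which makes the substrate of the pathway's rate-limiting reductase, had 11173, 9187 and 7948 in blastocysts, against 3255, 2824 and 3933 in morulae (log2 change 1.49 ± 0.26, adjusted p = 0.0766). PMVK, or phosphomevalonate kinase, had 688, 660 and 1048 in blastocysts, against 173, 155 and 28.4 in morulae (log2 change 2.82 ± 0.58, adjusted p = 0.117). FDPS, which makes farnesyl diphosphate, had 410, 911 and 782 in blastocysts, against 196, 183 and 149 in morulae (log2 change 1.83 ± 0.48, adjusted p = 0.263). All 3 enzymes act before the sterol ring forms. The second HMGCS1 probe set overlapped between the stages, with 905, 337 and 14.7 in blastocysts, against 127, 126 and 32.6 in morulae (adjusted p = 0.973).

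Later sterol enzymes separated too. CYP51A1, which removes a methyl group from lanosterol, had 7885, 12737 and 2465 in blastocysts, against 1085, 299 and 65.5 in morulae (log2 change 4.37 ± 1.09, adjusted p = 0.231). MSMO1, a sterol methyl oxidase of a later step, had 7245, 8662 and 6597 in blastocysts, against 4287, 3112 and 5053 in morulae (log2 change 0.87 ± 0.25, adjusted p = 0.344). The desaturase SCD, which makes monounsaturated fatty acids, had 3810, 6385 and 2286 in blastocysts, against 1107, 733 and 482 in morulae (log2 change 2.36 ± 0.52, adjusted p = 0.159). Outside the list, ELOVL4, which extends very long fatty acids, passed the test: it had 904, 593 and 436 in blastocysts, against 145, 98.4 and 76.2 in morulae (log2 change 2.41 ± 0.35, adjusted p = 0.0382, 0.144 with the block). A second ELOVL4 probe set had 53.1, 45.8 and 11.4 in blastocysts, against 31.4, 18.3 and 24.8 in morulae, and did not pass.

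Lipid uptake, storage and oxidation genes did not shift as a list: none of 51 passed, 9 had an unadjusted p below 0.05, 6 were higher on every blastocyst array and 6 lower, and the median was 0.04. ACSL3, which activates fatty acids at lipid droplets, had 5810, 8990 and 6064 in blastocysts, against 3522, 2840 and 2035 in morulae (adjusted p = 0.224). The fatty acid binding protein FABP5 had 3686, 7455 and 3429 in blastocysts, against 1171, 1179 and 1820 in morulae (adjusted p = 0.360). The droplet coat gene PLIN2 was lower on all blastocyst arrays, with 5541, 5094 and 4960, against 8497, 7677 and 6503 in morulae (log2 change -0.53 ± 0.21, adjusted p = 0.544). The related FABP3 overlapped, with 4895, 4459 and 6198 in blastocysts, against 8600, 8535 and 4538 in morulae.

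Of the other named rises, NGEF, a guanine nucleotide exchange factor, had 364, 391 and 1224 in blastocysts, against 42.7, 32.0 and 12.4 in morulae (log2 change 3.74 ± 0.48, adjusted p = 0.0223). FERMT2, or kindlin-2, which activates integrins at cell contacts, had 6237, 8715 and 4548 in blastocysts, against 1931, 1736 and 1233 in morulae (log2 change 1.96 ± 0.30, adjusted p = 0.0443). Its second probe set had 5603, 3999 and 10182 in blastocysts, against 3113, 3049 and 3318 in morulae, and did not pass (log2 change 0.95, adjusted p = 0.487). MAPK13, a stress-activated kinase of the p38 group, had 198, 328 and 595 in blastocysts, against 72.9, 47.5 and 37.6 in morulae (log2 change 2.40 ± 0.37, adjusted p = 0.0451), and the oocyte arrays lay between 1.00 and 1.38.

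PLEKHO2, a protein with a pleckstrin homology domain, had 2101, 1913 and 3472 in blastocysts, against 214, 224 and 188 in morulae (log2 change 3.44 ± 0.43, adjusted p = 0.0194). The haem-binding protein HEBP2 had 737, 1331 and 965 in blastocysts, against 97.7, 62.3 and 33.2 in morulae (log2 change 3.72 ± 0.38, adjusted p = 0.00915). FAM83B, a scaffold linked to growth factor signalling, had 205, 344 and 242 in blastocysts, against 39.7, 12.4 and 9.12 in morulae (log2 change 3.00 ± 0.38, adjusted p = 0.0223). The membrane protein gene TMEM220 had 146, 303 and 153 in blastocysts, against 18.6, 36.3 and 12.8 in morulae (log2 change 2.46 ± 0.32, adjusted p = 0.0223). SERTAD4 was the dimmest rise, with 55.9, 93.4 and 73.4 in blastocysts, against 20.8, 6.99 and 1.47 in morulae (log2 change 1.86 ± 0.28, adjusted p = 0.0426). With the replicate block the adjusted p of these 8 genes lay between 0.0905 and 0.218.

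The genes that fell were fewer, and none of them was on any of the 47 lists. DUSP26, a dual-specificity protein phosphatase, had 239, 164 and 33.6 in blastocysts, against 2647, 2983 and 2777 in morulae, where the 3 arrays were close to each other. Its log2 change was -4.42 ± 0.58 (adjusted p = 0.0223, 0.109 with the block), while its second probe set had 125, 75.9 and 167 in blastocysts, against 126, 161 and 196 in morulae and did not pass. ETNPPL, which breaks down phosphoethanolamine, had 67.5, 61.1 and 13.4 in blastocysts, against 912, 819 and 1390 in morulae (log2 change -4.16 ± 0.46, adjusted p = 0.0126, 0.0905 with the block). TKTL1, a transketolase-like protein of the pentose phosphate branch, had 190, 137 and 31.1 in blastocysts, against 1234, 1623 and 2861 in morulae (log2 change -3.99 ± 0.58, adjusted p = 0.0382, 0.206 with the block). In each, blastocyst 3 was the lowest array; without it the log2 change was -3.72 for DUSP26 and -3.35 for TKTL1, both still past the test.

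IL2RG, the shared receptor chain of several interleukins, had 17.4, 7.27 and 17.8 in blastocysts, against 153, 272 and 839 in morulae (log2 change -3.54 ± 0.51, adjusted p = 0.0382, 0.122 with the block). SRPX, a sushi-repeat protein, had 59.6, 60.3 and 35.2 in blastocysts, against 334, 645 and 1486 in morulae (log2 change -3.40 ± 0.51, adjusted p = 0.0420, 0.201 with the block). QPCT, the glutaminyl cyclase that caps peptide ends, had 8.00, 20.0 and 3.74 in blastocysts, against 230, 154 and 288 in morulae (log2 change -3.18 ± 0.41, adjusted p = 0.0223, 0.142 with the block). Morula 3 was the highest array in all 3; without it the log2 changes were -2.89, -2.85 and -2.99, and the adjusted p values 0.0198, 0.0702 and 0.0702.

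GNGT2, a G-protein gamma subunit, had 5.87, 11.8 and 6.08 in blastocysts, against 137, 157 and 328 in morulae (log2 change -3.14 ± 0.28, adjusted p = 0.00476, 0.0905 with the block). Both other GNGT2 probe sets changed by less, -0.57 and -0.03, and did not pass. PPP1R16B, a regulatory subunit of protein phosphatase 1, had 60.6, 49.5 and 52.7 in blastocysts, against 210, 297 and 317 in morulae (log2 change -2.03 ± 0.32, adjusted p = 0.0487). CUX1, a homeodomain transcription factor, had 8.45, 12.7 and 9.53 in blastocysts, against 63.4, 58.8 and 98.3 in morulae (log2 change -1.75 ± 0.20, adjusted p = 0.0137). The sugar cotransporter gene SLC5A10 was dim, with 6.97, 7.99 and 4.23 in blastocysts, against 24.6, 21.8 and 27.9 in morulae (log2 change -0.87 ± 0.13, adjusted p = 0.0419). With the block the adjusted p of PPP1R16B, CUX1 and SLC5A10 lay between 0.109 and 0.218, and the other probe sets of CUX1 and SLC5A10 did not pass, with changes between -0.31 and 0.05.

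Because IL2RG is an immune cell gene and SRPX is found in connective tissue, markers of those cells were read on the same arrays. Of 38 blood and immune markers none passed (4 had an unadjusted p below 0.05), 3 were higher on every blastocyst array and 5 lower, and 21 lay below the array median on all 6 arrays. Their summed signal ran from 13019 to 16856 in blastocysts and from 15813 to 25232 in morulae. That sum is weighted toward the brightest members and does not measure the amount of such cells. The T cell marker CD2 was lower on every blastocyst array, with 20.4, 15.3 and 9.76, against 30.7, 34.6 and 70.9 in morulae. The pan-leukocyte marker PTPRC had 14, 13.7 and 20.1 in blastocysts, against 17.8, 15.3 and 26.2 in morulae. CSF1R, the macrophage growth factor receptor that trophoblast also expresses, had 89.9, 78.2 and 105 in blastocysts, against 298, 460 and 1136 in morulae (log2 change -2.38 ± 0.68, adjusted p = 0.340).

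Of 25 fibroblast and stromal markers none passed (2 had an unadjusted p below 0.05), and 2 separated in each direction. The sums, weighted toward the brightest members, ran from 2607 to 4406 in blastocysts and from 2803 to 6791 in morulae. Morula 3 stood out within this list. The proteoglycan gene DCN had 6.62, 15.4 and 21.1 in blastocysts, against 10.3, 35.9 and 1324 in morulae, and THY1 had 91.8, 363 and 71.8 in blastocysts, against 43.5, 37.0 and 2421 in morulae. LUM followed, with 5.78, 22.5 and 3.95 in blastocysts, against 15.4, 5.78 and 256 in morulae. COL1A1, the main collagen of fibroblasts, had 3.67, 4.96 and 4.23 in blastocysts, against 7.31, 3.70 and 18.9 in morulae. The part of such cells in the results was not tested.

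Oviduct and endometrial markers (12 measured, 5 of them below the array median on all 6 arrays) summed to between 580 and 1800 in blastocysts and between 861 and 1292 in morulae. The oviduct gene OVGP1 was lower on every blastocyst array, with 66.7, 49.3 and 52.4, against 84.6, 114 and 403 in morulae. Morula 3 was the highest array here too, and the part of such cells was not tested. Sperm markers (13 measured, 7 below the median throughout) summed to between 2988 and 5841 in blastocysts and between 3280 and 3977 in morulae. A single gene of the sperm list had 4428, 4721 and 2077 in blastocysts, and 2158 to 3678 in oocytes. A single gene of the oviduct list had 1414 on blastocyst 1, and 12318 to 13621 in oocytes. The sums are weighted toward such bright members and do not measure the amount of those cells. Neither list had a call, with 1 and 0 genes at an unadjusted p below 0.05, and 1 oviduct gene separated in each direction. Of 13 oocyte and maternal-effect genes none passed, 1 had an unadjusted p below 0.05, and 3 were lower on every blastocyst array and 0 higher.

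**Figure D4:**
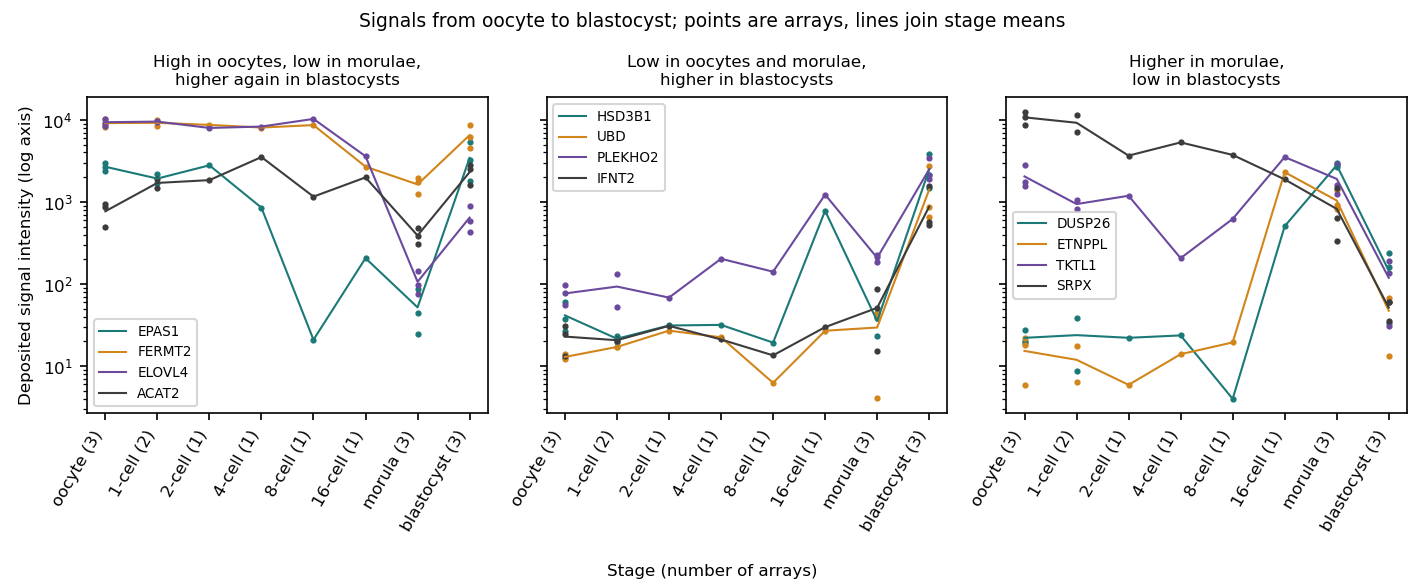
Deposited signal intensity, on a log axis, of 12 called genes over the 8 stages in developmental order, with points for arrays and lines through stage means; the number of arrays per stage is in brackets. The left panel shows genes lower in morulae than in oocytes and blastocysts, where ACAT2 differed little between oocytes and morulae. The middle panel shows genes lower in oocytes and morulae than in blastocysts, 2 of them bright on the single 16-cell array. The right panel shows genes that were lower in blastocysts than in morulae, SRPX and TKTL1 among them bright in oocytes as well.

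The earlier stages separated the called probe sets into several histories, described here without a test. Of the 29 that rose, 18 lay below 100 on all 11 arrays of oocytes, 1-cell to 8-cell embryos and morulae. For 5 of the 29, every oocyte array exceeded every morula array: EPAS1, ELOVL4, ACAT2, FERMT2 and a probe set with no gene name. EPAS1 had 2971, 2666 and 2408 in oocytes, 851 on the 4-cell array and 21.0 on the 8-cell array before the blastocyst signals of 1788 to 5306. ELOVL4 had 10362, 8464 and 9209 in oocytes, far above its blastocyst range of 436 to 904. FERMT2 had 8871, 10228 and 8249 in oocytes and 8623 on the 8-cell array. ACAT2 had 932, 500 and 875 in oocytes and 3518 on the 4-cell array, above every blastocyst array.

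The single 16-cell array was above every morula array for 12 of the 29 rises. HSD3B1 stood at 780 and PLEKHO2 at 1228 there, and MAPK13 at 114, while UBD and IFNT2 stood at 27.0 and 29.9. Among the 11 falls, the 16-cell array exceeded every blastocyst array for 9 and every morula array for 6. It had 2301 for ETNPPL, 3518 for TKTL1 and 1771 for IL2RG, with 507 for DUSP26. There is no second 16-cell array, so these values have no replicate check.

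Of the 11 falls, 8 had every oocyte array below every morula array: DUSP26, ETNPPL, IL2RG, GNGT2, CUX1, SLC5A10, PPP1R16B and a probe set with no gene name. DUSP26 had 19, 27.3 and 20.1 in oocytes, and ETNPPL 21.9, 18.2 and 5.91. SRPX, TKTL1 and QPCT were instead bright in oocytes. SRPX had 10927, 12531 and 8690 in oocytes, far above its morula range. For TKTL1 the oocyte signals of 1552, 1767 and 2809 overlapped those of morulae.

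The transcription factors of the first cell lineages did not pass the test. On the trophectoderm list 25 genes were measured, 4 were higher on every blastocyst array and 0 lower, 3 had an unadjusted p below 0.05, and the median log2 change was 0.06. Their summed signal was higher on every blastocyst array, from 15086 to 19358, against 12602 to 14825 in morulae. That sum is weighted toward the brightest members, KLF5 and GRHL1, and does not describe the list as a whole. TFAP2A, which acts in trophectoderm gene control, had 909, 1223 and 155 in blastocysts, against 35.9, 28.8 and 11.6 in morulae (log2 change 3.86 ± 0.70, adjusted p = 0.0822). GRHL1, an epithelial transcription factor, had 2049, 4429 and 2728 in blastocysts, against 984, 1016 and 1839 in morulae (adjusted p = 0.801).

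Other trophectoderm factors overlapped between the stages. KLF5 had 6484, 8201 and 8429 in blastocysts, against 7483, 6087 and 6097 in morulae (log2 change 0.23 ± 0.66, and -0.15 as the mean of both probe sets). TEAD4, which starts the trophectoderm programme in mouse, had 571, 334 and 1506 in blastocysts, against 1170, 1537 and 2904 in morulae (log2 change -1.37 ± 0.57, adjusted p = 0.594). ASCL2, a placental factor, had 70.7, 47.1 and 29.1 in blastocysts, against 27.2, 46.6 and 23.1 in morulae, and ELF5 14.3, 5.95 and 3.15 in blastocysts, against 7.14, 4.99 and 10.7 in morulae. The receptor FGFR2 had 107, 110 and 36.2 in blastocysts, against 105, 66.1 and 15.7 in morulae.

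Pluripotency genes showed 1 of 12 higher and 3 lower on every blastocyst array, with 1 at an unadjusted p below 0.05. For POU5F1 the log2 change was -0.24 ± 0.33 (95% interval -0.97 to 0.50), and all 3 blastocyst arrays lay below all 3 morula arrays. SOX2, a factor of the inner cell mass, had 64.8, 79.2 and 91.7 in blastocysts, against 416, 450 and 152 in morulae (log2 change -1.78 ± 0.80, 95% interval -3.57 to 0.00, adjusted p = 0.645). KLF4 had 9060, 10625 and 5040 in blastocysts, against 11741, 8598 and 6180 in morulae, and CD9 had 11032, 13157 and 7103 in blastocysts, against 8807, 4860 and 2967 in morulae. KIT, a growth factor receptor, had 7320, 5599 and 5300 in blastocysts, against 5299, 1821 and 3581 in morulae (adjusted p = 0.582). TRIM28, a chromatin corepressor, had 154, 77.4 and 124 in blastocysts, against 255, 416 and 261 in morulae (adjusted p = 0.708).

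On the hypoblast and endoderm list, 4 of 24 genes were higher on every blastocyst array and 2 lower, with 4 at an unadjusted p below 0.05 and a median of 0.01. APOA1, an apolipoprotein of endoderm, had 293, 567 and 2519 in blastocysts, against 61.4, 63.8 and 23.2 in morulae (log2 change 3.63 ± 0.78, adjusted p = 0.148). The APOA1 change was 2.77 without blastocyst 3. The highest-signal ALB probe set of 9 had 5485, 6722 and 8018 in blastocysts, against 2581, 2303 and 3357 in morulae (adjusted p = 0.396). The other ALB probe sets had log2 changes from -0.55 to 1.01 and did not pass. GATA6, a hypoblast transcription factor, had 10137, 13054 and 7408 in blastocysts, against 10886, 9738 and 8896 in morulae, a log2 change of 0.02 that was -0.03 after quantile normalization. GATA4 had 340, 315 and 408 in blastocysts, against 447, 595 and 187 in morulae. PDGFRA, a receptor of the hypoblast, had 4481, 3315 and 512 in blastocysts, against 1499, 1444 and 996 in morulae (adjusted p = 0.966), and DAB2 had 8880, 8513 and 8868 in blastocysts, against 8490, 7638 and 3219 in morulae (adjusted p = 0.888). FGFR4 had 362, 125 and 428 in blastocysts, against 705, 433 and 966 in morulae, and RSPO3, a Wnt enhancer, had 777, 632 and 284 in blastocysts, against 2036, 3211 and 1920 in morulae (adjusted p = 0.649).

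Basement membrane genes, 43 measured, had 4 higher and 4 lower on every blastocyst array, 7 at an unadjusted p below 0.05 and no call. NID1, which joins laminin and collagen networks, had 215, 415 and 86.3 in blastocysts, against 15.3, 25.9 and 18.4 in morulae (log2 change 2.61 ± 0.49, adjusted p = 0.0945). The protease PLAU, which activates plasminogen, had 10106, 11808 and 8888 in blastocysts, against 4808, 3702 and 1023 in morulae (log2 change 1.95 ± 0.67, adjusted p = 0.457). The integrin ITGB3 had 298, 453 and 224 in blastocysts, against 822, 2000 and 2692 in morulae (log2 change -2.34 ± 0.57, adjusted p = 0.223). Other ITGB3 probe sets had log2 changes from -0.21 to 0.26 and did not pass. Fibronectin (FN1) overlapped, with 9526, 10429 and 8366 in blastocysts, against 8475, 7524 and 7198 in morulae. ITGB5 had 10982, 12661 and 11979 in blastocysts, against 11767, 12178 and 11773 in morulae.

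**Figure D5:**
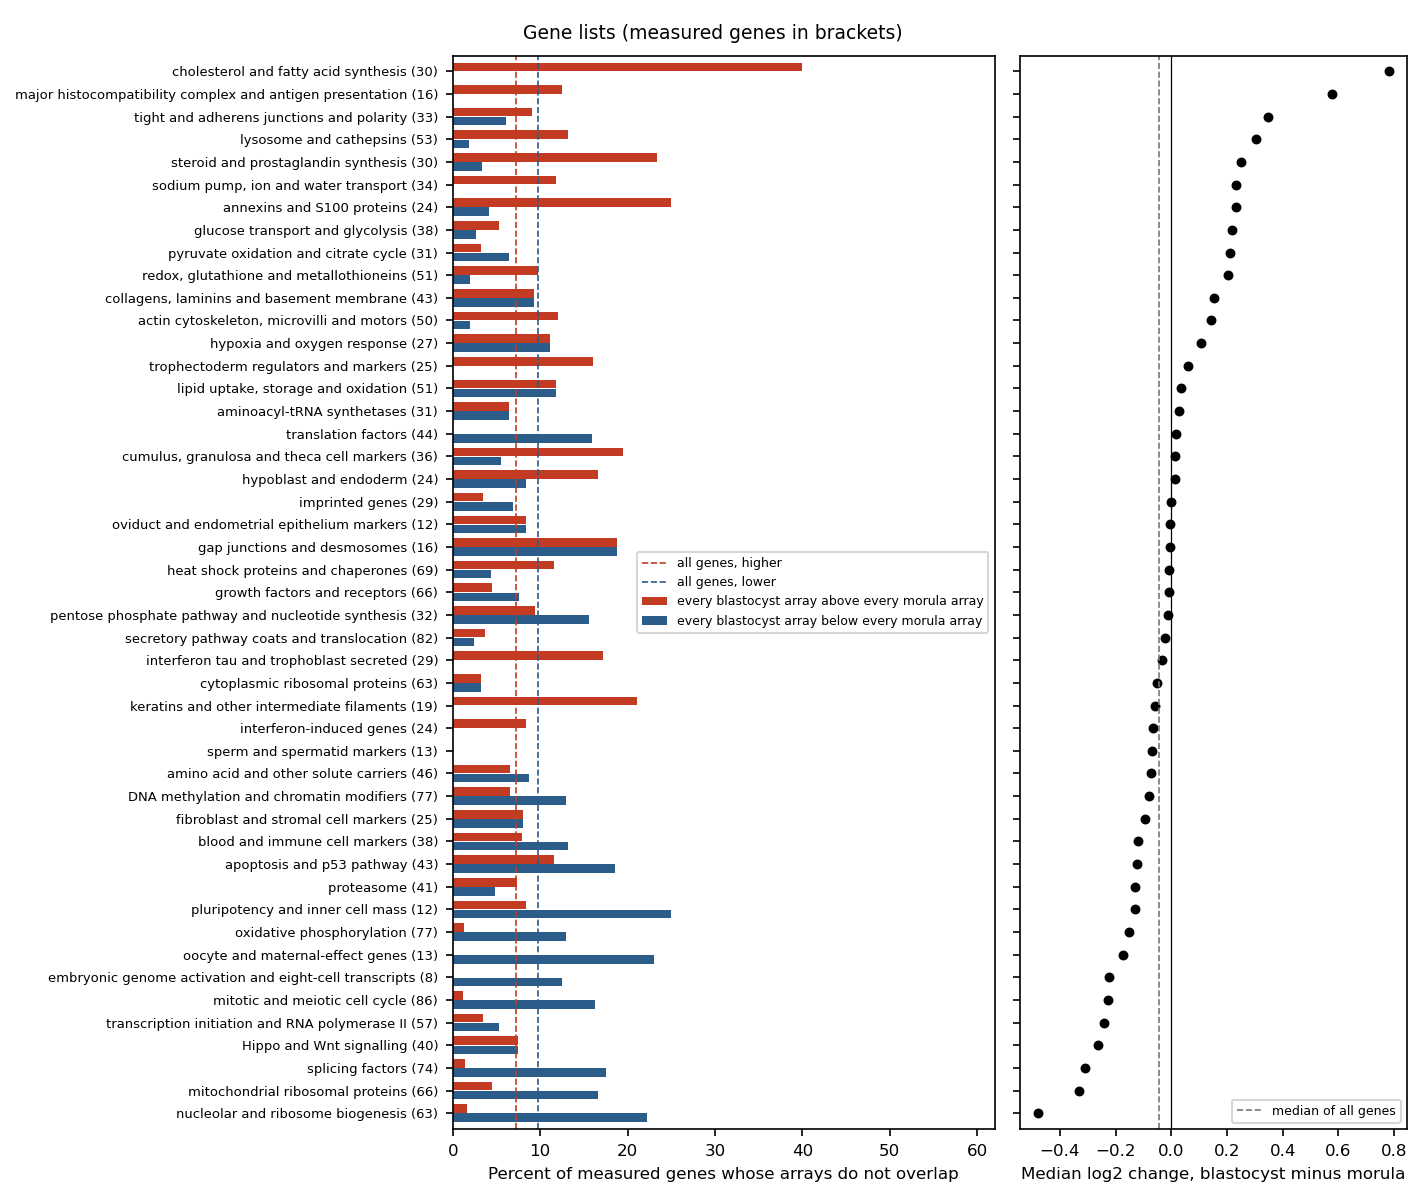
The left panel gives, for each of the 47 lists, the percent of its measured genes whose blastocyst arrays all lie above (red) or all below (blue) the morula arrays, with dashed lines at 7.22% and 9.77% for all 9155 genes; the right panel gives the median log2 change, blastocyst minus morula. Cholesterol and fatty acid synthesis stands at the top with 12 of 30 higher, 0 lower and a median of 0.78, and nucleolar and ribosome biogenesis at the bottom with 1 higher, 14 lower and a median of -0.48.

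Lists of the machinery of growth had medians on either side of that of all genes, with no gene past the test. Nucleolar and ribosome biogenesis genes, which make ribosomes, had 14 of 63 lower on every blastocyst array and 1 higher, 8 at an unadjusted p below 0.05 and a median log2 change of -0.48, against -0.04 for all genes. Their summed signal was lower on every blastocyst array, from 94834 to 97513, against 119316 to 136295 in morulae. PPAN, needed for the large ribosomal subunit, had 662, 686 and 608 in blastocysts, against 2105, 1960 and 991 in morulae (log2 change -1.28 ± 0.44, adjusted p = 0.457). POLR1C, part of the polymerases that transcribe ribosomal RNA, had 3624, 2074 and 848 in blastocysts, against 7106, 6507 and 5238 in morulae (adjusted p = 0.646). NOP16 had 5335, 4930 and 4647 in blastocysts, against 7635, 8240 and 6356 in morulae, and nucleolin (NCL) overlapped, with 10703, 10693 and 11686 in blastocysts, against 11682, 12573 and 11607 in morulae.

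Mitochondrial ribosomal proteins had 11 of 66 lower on every blastocyst array and 3 higher, with 2 at an unadjusted p below 0.05. Their median log2 change was -0.33; between blastocyst 3 and morula 3 alone it was 0.06. Splicing factors had 13 of 74 lower and 1 higher (median -0.31, 8 at an unadjusted p below 0.05), and oxidative phosphorylation genes 10 of 77 lower and 1 higher (median -0.15, 4 at an unadjusted p below 0.05). In the last list, UQCR10, a subunit of respiratory complex III, had 906, 411 and 544 in blastocysts, against 2934, 1952 and 1293 in morulae (log2 change -1.70 ± 0.44, adjusted p = 0.251). Translation factors had a median of 0.02 over 44 genes. Of these, 0 were higher and 7 lower on every blastocyst array, with 0 at an unadjusted p below 0.05. The median of aminoacyl-tRNA synthetases was 0.03 over 31 genes (2 in each direction, 1 at an unadjusted p below 0.05). Beside these counts stand 7.22% higher and 9.77% lower on every blastocyst array over all genes. Of the cytoplasmic ribosomal proteins, 2 of 63 separated in each direction, 0 had an unadjusted p below 0.05, and the median was -0.05. RPS6 had 17878, 20788 and 17448 in blastocysts, against 17467, 16304 and 12408 in morulae, and RPL11 had 13686, 15378 and 14555 in blastocysts, against 13575, 14387 and 13440 in morulae.

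Cell cycle genes had 14 of 86 lower on every blastocyst array and 1 higher, and a median of -0.23. Of the 86, 6 had an unadjusted p below 0.05, beside 852 of all 9155 genes. CCNB1, the cyclin that drives entry into mitosis, had 1110, 2357 and 1371 in blastocysts, against 3964, 3436 and 2583 in morulae (log2 change -1.09 ± 0.42, adjusted p = 0.541). CDK2, the kinase of DNA replication onset, had 1942, 916 and 2498 in blastocysts, against 3040, 3435 and 3579 in morulae (log2 change -1.02 ± 0.39, adjusted p = 0.544). CKS2, a binding partner of such kinases, had 8038, 6981 and 7329 in blastocysts, against 9485, 9509 and 8778 in morulae (log2 change -0.31 ± 0.21). The spindle checkpoint gene BUB3 overlapped, with 9566, 9238 and 8144 in blastocysts, against 10719, 10283 and 8050 in morulae.

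Of 77 chromatin genes, 5 were higher and 10 lower on every blastocyst array, to be read beside the 7.22% and 9.77% of all genes, with 9 at an unadjusted p below 0.05 and a median of -0.08. The de novo methyltransferase DNMT3A had 6530, 4671 and 8510 in blastocysts, against 2675, 2633 and 767 in morulae (log2 change 1.85 ± 0.59, adjusted p = 0.407), with oocytes between 12.3 and 44.1. Other DNMT3A probe sets had log2 changes of -0.39 and 1.93 and did not pass. DNMT3B had 64.1, 86.3 and 40.8 in blastocysts, against 55.5, 46.6 and 39.8 in morulae, and DNMT1 had 48.9, 49.4 and 44.8 in blastocysts, against 66.9, 68.7 and 25.4 in morulae. TDG, a glycosylase that removes mismatched thymine and acts in DNA demethylation, had 708, 2055 and 1056 in blastocysts, against 278, 101 and 28.4 in morulae (log2 change 3.35 ± 0.66, adjusted p = 0.104). CHAF1B, a subunit of a histone chaperone, had 413, 241 and 127 in blastocysts, against 652, 1239 and 3903 in morulae (log2 change -2.57 ± 0.67, adjusted p = 0.264). ASF1B, another histone chaperone, had 875, 466 and 840 in blastocysts, against 1655, 1776 and 1535 in morulae (log2 change -1.22 ± 0.32, adjusted p = 0.265), and a change of -0.02 in its second probe set.

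Among 29 imprinted genes none passed, 6 had an unadjusted p below 0.05, 1 was higher and 2 lower on every blastocyst array. PHLDA2, which limits placental growth in mouse, had 146, 86.8 and 56.4 in blastocysts, against 727, 754 and 712 in morulae (log2 change -2.81 ± 0.51, adjusted p = 0.0846), and 7388 on the 16-cell array. IGF2R, a receptor that clears insulin-like growth factor, had 5726, 5633 and 2098 in blastocysts, against 3602, 3545 and 1352 in morulae (adjusted p = 0.927). Its arrays numbered 3 were the lowest of both stages.

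In metabolism, glucose transport and glycolysis had 2 of 38 higher and 1 lower on every blastocyst array, a median of 0.22 and 4 at an unadjusted p below 0.05. The glycolytic enzyme ENO1 had 4629, 7184 and 6257 in blastocysts, against 3168, 2190 and 1100 in morulae (log2 change 1.58 ± 0.46, adjusted p = 0.350). The glucose transporter SLC2A1 overlapped, with 986, 1741 and 1071 in blastocysts, against 1489, 852 and 772 in morulae. GAPDH had 5314, 7442 and 3572 in blastocysts, against 7124, 3894 and 658 in morulae, and the actin gene ACTB 11767, 12934 and 8748 in blastocysts, against 11893, 11959 and 7992 in morulae; both overlapped.

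Of 32 genes of the pentose phosphate pathway and nucleotide synthesis none passed, 4 had an unadjusted p below 0.05, 3 were higher and 5 lower on every blastocyst array and the median was -0.01. PSAT1, of serine synthesis, had 8880, 8816 and 4591 in blastocysts, against 1522, 1900 and 575 in morulae (log2 change 2.57 ± 0.64, adjusted p = 0.231). Other PSAT1 probe sets had log2 changes of -0.31 and 0.48 and did not pass. GMPS, which makes guanine nucleotides, had 1036, 2195 and 991 in blastocysts, against 378, 220 and 230 in morulae (log2 change 2.23 ± 0.46, adjusted p = 0.119). SHMT2, which passes serine carbon into the folate cycle of mitochondria, had 615, 591 and 194 in blastocysts, against 1612, 2839 and 1277 in morulae (log2 change -2.07 ± 0.51, adjusted p = 0.228). The amino acid exchanger subunit SLC7A7 had 660, 1023 and 1030 in blastocysts, against 200, 144 and 104 in morulae (log2 change 2.49 ± 0.47, adjusted p = 0.0961).

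Some single genes of other lists had arrays that did not overlap, without passing. BAD, which promotes cell death, had 494, 189 and 1146 in blastocysts, against 4142, 4593 and 2684 in morulae (log2 change -2.91 ± 0.62, adjusted p = 0.143). MGST2, a membrane glutathione transferase, had 223, 331 and 802 in blastocysts, against 55.9, 26.3 and 19.4 in morulae (log2 change 3.10 ± 0.57, adjusted p = 0.0834), with oocytes from 617 to 1761. Carbonic anhydrase CA2 had 37.6, 112 and 449 in blastocysts, against 32.0, 17.7 and 5.55 in morulae (adjusted p = 0.728). Beta-catenin (CTNNB1) had 6616, 6163 and 5809 in blastocysts, against 5058, 3606 and 1531 in morulae (adjusted p = 0.652), while the Hippo pathway target CCN2 overlapped, with 2674, 3347 and 2005 in blastocysts, against 4591, 3503 and 3274 in morulae.

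Antigen presentation genes had a median log2 change of 0.58 over 16 measured, with 2 higher on every blastocyst array, 0 lower and 3 at an unadjusted p below 0.05; the median was 0.29 without morula 3. B2M, the light chain of class I molecules, had 12560, 15584 and 6981 in blastocysts, against 11999, 9964 and 3661 in morulae. BOLA, a bovine class I gene of a polymorphic family, had 5434, 905 and 3512 in blastocysts, against 645, 1170 and 821 in morulae (adjusted p = 0.633). Both overlapped between stages.

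Of the 47 lists, 42 held no called gene. The 2 highest members of those lists that are not named above, 51 genes in all, had log2 changes between -0.78 and 1.48, and their smallest adjusted p was 0.582.

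Of the called probe sets, 10 carry no gene symbol, 9 of them higher in blastocysts. The one with the largest rise had 3880, 3172 and 1603 in blastocysts, against 40.2, 73.8 and 28.3 in morulae (log2 change 5.49 ± 0.74, adjusted p = 0.0279). The one with the smallest adjusted p had 1553, 1304 and 1906 in blastocysts, against 114, 91.9 and 39.5 in morulae (log2 change 4.11 ± 0.41, adjusted p = 0.00775). The only unnamed fall had 56.4, 32.8 and 4.32 in blastocysts, against 276, 278 and 344 in morulae (log2 change -2.92 ± 0.40, adjusted p = 0.0315).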

How the data were processed

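Per the labels' protocols, total RNA went through 3 rounds of amplification with biotin labelling before hybridisation to Bovine Genome arrays from Affymetrix. The values deposited by the authors are linear signal intensity per probe set. Not given in the sources used here: summarisation, scaling and floor. Here log2(intensity + 16) of 24016 probe sets (112 control probe sets left out) was fitted with limma 3.58.1 in R 4.3.3 (lmFit, eBayes with a trend), 1 mean per stage over 15 arrays (7 residual degrees of freedom), contrast blastocyst minus morula, Benjamini-Hochberg at 0.05. Intervals are 95%. Tables and figures used Python 3.11.15, pandas 2.3.3 and matplotlib 3.10.9. The code was tested on simulated data.

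GEO's platform annotation gave 1 gene symbol to 13292 probe sets, several to 86 and none to 10638; 13263 matched RefSeq gene names (ARS-UCD2.0). Per gene (9155), the probe set of highest mean over the 15 arrays was used; called probe sets are described as such. Named are up to 15 rises and 15 falls past the test with a higher group mean above 80.1, up to 4 called members or the 2 highest members of each list, and 38 set genes, 10 of which have no named probe set; 51 of the list members are given as a range. Other called genes (TKDP1, SLC9A3, SLC13A4, FERMT2, SERTAD4, GNGT2, CUX1 and SLC5A10) fall outside that rule and were chosen after their values were seen. Members and the 47 lists (1799 of 2426 genes measured) were chosen with earlier results of these data known. Signals compare arrays for 1 probe set, not probe sets with each other. The summed signal of a list is therefore weighted toward its brightest probe sets.

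The replicate numbers are the titles'. Same-numbered blastocyst and morula arrays deviated together from their stage means (correlations 0.195, 0.106 and 0.306; morula and oocyte arrays 0.142, 0.107 and 0.182), so the fit with the number as a block is given beside the results; blastocyst 2 correlated more with morula 1 (0.304) than with morula 2. The number of arrays limits the precision. Alternatives covered normalization, pseudocount, filter, variance model, arrays used, spike-in class and the probe sets of a gene.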

Additional observations from a re-analysis of the deposited data

How the results depend on the processing

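Of 40 called probe sets, 31 stayed past the test after quantile normalization, 38 after median centring, 31 without the variance trend, 34 with robust variance and 34 with spike-in class as a block. All 40 kept their direction in every alternative that fitted them. With a pseudocount of 1 there were 10 probe sets higher and 3 lower (5 and 2 genes); with 64 there were 43 higher and 23 lower (24 and 14 genes). Only the morula and blastocyst arrays gave 0 and 0 (smallest adjusted p by limma 0.291), as did the replicate block (0.0905). The fit of oocyte, morula and blastocyst arrays without the block, added after seeing the data, gave 11 and 3 (6 and 2 genes). Leaving out blastocyst 3 and morula 3, which have spike-in signal, gave 40 and 15 (23 and 5 genes). Arrays of other stages with spike-in signal stayed in that fit. Averaging a gene's probe sets gave 41 genes higher and 19 lower. Leaving out 1 array in turn gave 2 to 61 probe sets higher and 1 to 20 lower, and 2 to 30 genes higher and 0 to 9 lower. The cause of these shifts was not tested.

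For 13 named genes that did not pass, the sign of the change turned under some alternative. They include GAPDH (log2 change 0.97), CLDN6 (0.50) and FGFR2 (0.45), which turned without morula 3. Over the arrays without spike-in signal the log2 change was -0.02 for CLDN6 and 0.23 for ELF5. After quantile normalization it was 0.00 for DNMT1 and -0.03 for GATA6, with a pseudocount of 64 it was 0.00 for ELF5, and with probe sets averaged it was 0.57 for ITGB5, -0.15 for KLF5 and 0.02 for TJP1. With 1 array left out, the change ranged from -0.12 to 0.24 for ACTB, -0.26 to 0.04 for AQP3, -0.12 to 0.86 for CLDN6, -0.40 to 0.12 for DNMT1 and -0.20 to 0.13 for ELF5. It ranged from -0.10 to 0.87 for FGFR2, -0.02 to 1.69 for GAPDH, -0.53 to 0.27 for GATA4, -0.18 to 0.23 for GATA6, -0.05 to 0.05 for ITGB5, -0.35 to 0.20 for KLF4 and -0.55 to 0.33 for TJP1. The cause was not tested. Genes that did not pass in the fit over all 15 arrays, such as KRT8, passed under 31 of the gene and alternative pairs tried. Signals below the array median carry no detection call, which limits the dim genes.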
